A study of Mus musculus with 18 samples.

Results

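The genes described here are those whose early response to interleukin-3 (IL-3) differed between a line of mouse blood progenitors with a mutant IL-3 receptor and a line with the wild-type receptor. Of 11278 genes tested, from 23329 in the count tables, 727 had a different day 2 response in the P248L line. That is 6.45% of the genes tested. The response was higher on the log2 scale in P248L for 180 genes (1.6% of those tested) and lower for 547 (4.85%). Each gene was chosen by the interaction of line and treatment: the log2 fold change of day 2 over untreated in P248L, minus the same fold change in wild-type (WT) cells. A gene was taken at an adjusted p under 0.05. All adjusted p-values below come from the quasi-likelihood F test of edgeR with Benjamini-Hochberg adjustment over the 11278 genes.

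The cells were FDH lines, immortalised from the E14.5 fetal liver of bc-/- bIL-3-/- mice of the BALB/c strain and used at passages 10 to 12. The 4 groups, with 3 libraries each, were P248L at day 2, P248L untreated, WT at day 2 and WT untreated. By genotype all 4 groups lack both endogenous beta chains and carry transduced bc, and they differ in the transduced IL3Ra, which is IL3Ra P248L or wild-type IL3Ra. Untreated cells grew with doxycycline and 100 ng/ml mouse SCF (stem cell factor, which binds Kit), and day 2 cells had been washed and kept for 2 days with 100 ng/ml IL-3. The IL-3 medium as listed holds neither doxycycline nor SCF, so a response spans both the added IL-3 and the withdrawal of doxycycline and SCF. With 1 line for each receptor, an effect of the receptor and a trait of the line cannot be told apart. No label states that replicates came from separate cultures, and the p-values therefore measure the spread between these libraries, which may be technical.

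IL-3 binds the alpha chain IL3Ra, and the complex then recruits the common beta chain bc, which carries the kinase JAK2. The assembled receptor activates the transcription factor STAT5, the RAS-MAPK cascade and PI3 kinase. In myeloid progenitors IL-3 sustains survival and division and promotes maturation towards neutrophils, macrophages, basophils and mast cells. STAT5 raises a well known set of genes, among them its feedback inhibitor Cish and the kinase Pim1, while MAPK signalling raises immediate-early genes such as Egr1 and the phosphatase Dusp6.

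Reads assigned to genes numbered 13844612 to 27181962 per library. The labelled progenitor type was checked against the summed level of Kit, Cd34, Flt3, Myb, Hoxa9 and Meis1. In P248L the sum was 1130 to 1360 CPM (counts per 1000000 reads) at day 2 and 2270 to 2620 CPM untreated. In WT it was 697 to 752 CPM at day 2 and 2100 to 2260 CPM untreated. Kit, Flt3 and Hoxa9, given singly below, fell further in WT than this sum did, and Cd34, Myb and Meis1 are not given singly. None of 9 erythroid markers had enough reads to be tested, and of 13 hepatocyte, stromal and endothelial markers only Afp did, at 0.851 to 1.25 CPM in P248L day 2 libraries and 14.2 to 15.2 CPM in WT day 2 libraries. In bulk RNA, fewer cells of a type and less RNA per cell cannot be told apart. The part of these marker levels in the results was not tested. P248L libraries varied more than WT libraries: the root mean square deviation of a library from its group mean (log2) was 0.185 to 0.468 in P248L and 0.162 to 0.219 in WT. It was highest in P248L untreated library 1 and P248L day 2 library 3. Without these 2 libraries 1131 genes passed, and all 727 kept their direction. The libraries left are among those that chose the 727, so the kept direction is not independent support. Without P248L untreated library 2 the count was 469. Deviations of P248L libraries with the same replicate number correlated at 0.2 to 0.47, and whether that number marks a pair was not tested. With that number as a block within P248L 2214 genes passed, 43.3% of them higher in P248L against 24.8% without the block. These 2214 include all 727, which the same libraries chose.

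The 727 genes were sorted by the 2 responses. A weakened response passed the threshold in both lines in the same direction and was smaller in P248L, which held for 222 genes, 140 with a WT rise and 82 with a WT fall. A lost response passed in WT and not in P248L, which held for 266 genes, 211 rises and 55 falls. A reversed response passed in both lines in opposite directions, which held for 98 genes, 84 with a WT rise and 14 with a WT fall. A stronger response passed in both lines and was larger in P248L for 37 genes, 9 rises and 28 falls, and a further 104 genes, 20 rises and 84 falls, passed in P248L and not in WT. For 47 of these 104 genes the WT day 2 and WT untreated libraries did not overlap either. Without P248L untreated library 1 and P248L day 2 library 3 the counts were 332 weakened, 452 lost, 123 reversed and 224 stronger, the last with both kinds of stronger response, which numbered 141 in the 12 libraries. With the block within P248L they were 461 weakened, 741 lost, 222 reversed and 767 stronger. The classes describe the fitted values that chose the genes and were not tested themselves.

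**Figure D1:**
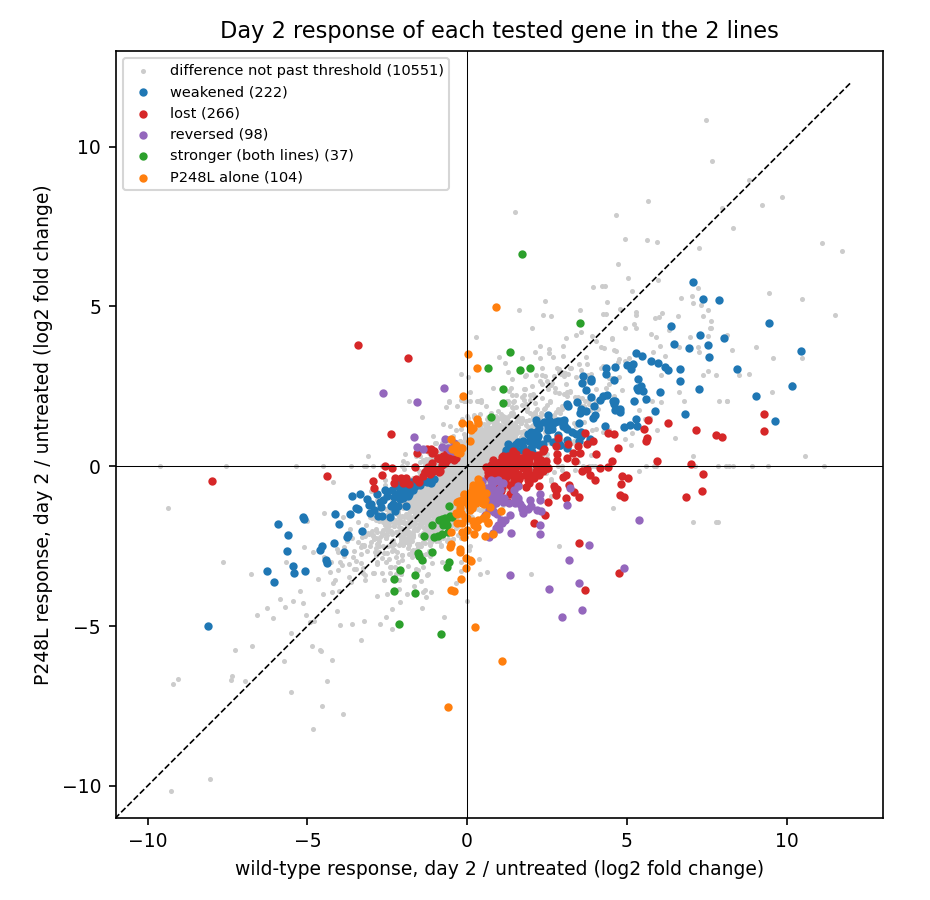
Each point is a tested gene, with its WT day 2 response (log2 fold change over untreated) on the horizontal axis and its P248L day 2 response on the vertical axis; the dashed line marks equal responses. Coloured points are the 727 genes whose responses differed, by class: the 222 weakened responses lie between the dashed line and the horizontal axis, the 266 lost ones scatter about the horizontal axis and the 98 reversed ones lie across it.

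In single lines, 1776 genes rose in P248L (15.7%) and 2115 fell (18.8%), while 2141 rose in WT (19.0%) and 2200 fell (19.5%). Of the 2141 WT rises, 444 (20.7%) differed from the P248L response, 9 with a higher and 435 with a lower log2 response in P248L. Of the 2200 WT falls, 179 (8.14%) differed, 151 of them with a higher value in P248L. Of these 151, 82 fell less in P248L, 55 did not pass in P248L and 14 rose in P248L. The WT libraries enter both counts, so these shares describe the genes and are not independent of one another. Of 2398 genes that passed in the same direction in both lines, 259 (10.8%) differed. The median difference over all tested genes was 0.01 on the log2 scale.

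**Figure D2:**
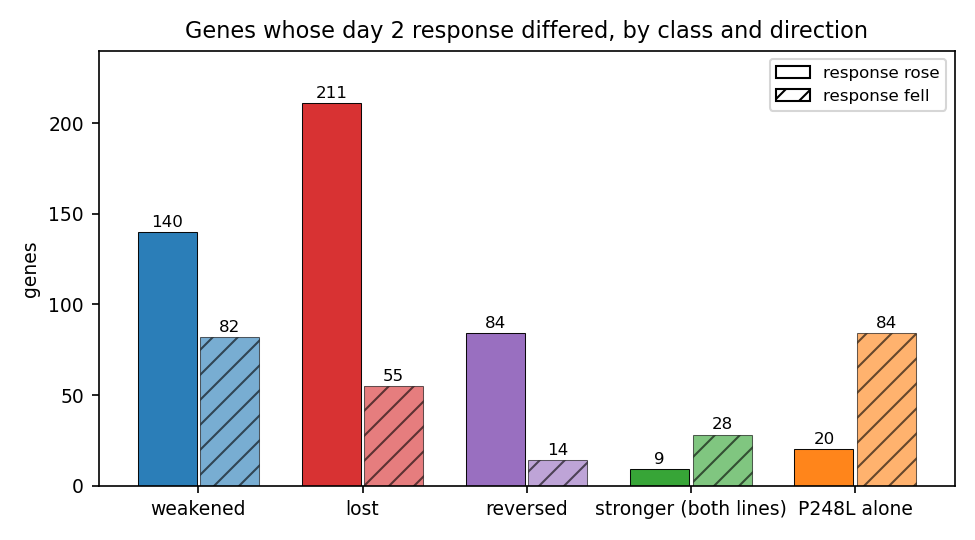
Bars give the number of genes in each class, with rises plain and falls hatched (direction of the WT response for the first 3 classes, of the P248L response for the other 2). The tallest bar is the 211 WT rises lost in P248L, and falls outnumber rises among the 37 stronger responses and among the 104 seen in P248L alone.

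Promoter sequences are shown for 4 of the genes described below, from 250 bases before to 50 after the RefSeq transcription start on GRCm38.p6. Cish responded in both lines, Ngp was weakened, and Anxa1 and Csf2rb2 were lost. For Csf2rb2, reads from the transduced bc and from the endogenous loci cannot be told apart. Its lost rise therefore cannot be assigned to the promoter shown. Capitals mark a STAT motif (TTCNNNGAA) in Cish and Csf2rb2 and a C/EBP motif (TTGCNNAA) in Ngp and Anxa1. Both strands were searched for these letters. C/EBP factors direct neutrophil maturation. Each of the 4 promoters carries its marked motif, which most promoters of the sets below lack, so the 4 are not typical of their classes.
Cish, chr9:107296409-107296708, plus strand: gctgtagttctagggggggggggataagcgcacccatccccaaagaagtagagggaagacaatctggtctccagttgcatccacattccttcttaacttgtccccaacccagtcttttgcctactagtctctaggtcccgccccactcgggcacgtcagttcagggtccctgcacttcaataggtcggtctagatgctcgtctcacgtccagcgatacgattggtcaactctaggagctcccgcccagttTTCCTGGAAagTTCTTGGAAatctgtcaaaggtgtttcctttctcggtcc
Ngp, chr9:110419558-110419857, plus strand: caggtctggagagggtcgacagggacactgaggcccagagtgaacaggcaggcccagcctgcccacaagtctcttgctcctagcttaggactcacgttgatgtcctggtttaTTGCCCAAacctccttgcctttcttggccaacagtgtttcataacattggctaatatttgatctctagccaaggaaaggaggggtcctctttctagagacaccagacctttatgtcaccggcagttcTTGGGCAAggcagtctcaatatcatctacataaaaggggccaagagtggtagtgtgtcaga
Anxa1, chr19:20390622-20390921, minus strand: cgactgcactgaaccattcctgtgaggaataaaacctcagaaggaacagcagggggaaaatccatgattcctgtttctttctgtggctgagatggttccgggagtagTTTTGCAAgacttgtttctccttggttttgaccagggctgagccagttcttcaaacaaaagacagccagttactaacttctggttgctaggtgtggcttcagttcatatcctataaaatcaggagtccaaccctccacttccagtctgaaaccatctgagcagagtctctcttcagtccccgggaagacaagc
Csf2rb2, chr15:78305672-78305971, minus strand: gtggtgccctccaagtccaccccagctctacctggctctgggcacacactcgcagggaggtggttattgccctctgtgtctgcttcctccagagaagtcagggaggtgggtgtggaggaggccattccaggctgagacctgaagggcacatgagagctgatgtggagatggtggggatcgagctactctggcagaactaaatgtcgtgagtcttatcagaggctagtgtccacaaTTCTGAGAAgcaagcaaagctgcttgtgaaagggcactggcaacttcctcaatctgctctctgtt
The C/EBP letters occurred in 19.2% of 146 promoters of weakened WT rises and in 13% of 230 promoters of lost WT rises. They occurred in 9.24% of 974 promoters of genes that rose in both lines with no difference called, in 8.59% of 11473 promoters of tested genes and in 10.8% of 32851 promoters in the table. The STAT letters occurred in 8.9%, 5.65%, 7.91%, 6.98% and 8.3% of the same sets in the same order. The E-box CACGTG of MYC occurred in 3.42%, 8.26%, 13%, 10.3% and 7.15% of them. In 99 promoters of reversed WT rises the shares were 9.09% for C/EBP, 8.08% for STAT and 7.07% for MYC. For C/EBP the shares in promoters of weakened, lost and reversed WT falls were 5%, 11.1% and 0%. These shares describe letters in a window and say nothing of binding, and they were not tested.

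STAT5-responsive genes lay on both sides of the threshold, and no test compared their differences with one another. Cish, which encodes a STAT5-induced feedback inhibitor of cytokine receptors, had 162, 113 and 107 CPM in the P248L day 2 libraries, against 10.7, 6.92 and 5.65 CPM in P248L untreated. In WT, Cish had 164, 150.3 and 181 CPM at day 2, against 7.55, 6.56 and 7.29 CPM untreated. Every day 2 library stood above every untreated library of its line, and the lines overlapped at both times. The response was 4.02 ± 0.24 in P248L and 4.53 ± 0.25 in WT (log2 fold change ± SE). The difference for Cish was -0.51 ± 0.31, with a 95% interval of -1.18 to 0.17 and an adjusted p of 0.393, so a weaker response of about the size of the lower bound was not excluded by the interval.

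Pim1, a survival kinase induced through STAT5, had 513, 432 and 395 CPM in the P248L day 2 libraries, against 58.8, 47.6 and 51.5 CPM in P248L untreated. In WT, Pim1 had 329, 307 and 351 CPM at day 2, against 35.1, 29.3 and 39.5 CPM untreated. P248L libraries were above WT libraries at both times, and both lines rose without overlap. The difference for Pim1 was -0.16 ± 0.21 (95% interval -0.62 to 0.30, adjusted p = 0.698). Socs2, another STAT5-responsive inhibitor, passed in neither line, with a difference of 0.09 ± 0.32 (95% interval -0.60 to 0.78). Myc, the growth regulator, also passed in neither, with a difference of 0.55 ± 0.29 (95% interval -0.09 to 1.19).

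Other STAT5-responsive genes differed. Osm, the cytokine oncostatin M, had 32.8, 24.2 and 21.7 CPM in the P248L day 2 libraries, against 13.9, 10.5 and 8.24 CPM in P248L untreated. In WT, Osm had 54.9, 54.3 and 45.3 CPM at day 2, against 2.01, 3.12 and 2.63 CPM untreated. Osm was higher in P248L than in WT before IL-3 and lower at day 2, with no overlap between lines at either time. The difference for Osm was -3.04 ± 0.33 (adjusted p = 0.000132), which made it a weakened response.

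Bcl2l1, which encodes the survival protein BCL-XL, had 63.7, 55.0 and 38.9 CPM in the P248L day 2 libraries, against 31.6, 25.7 and 22.0 CPM in P248L untreated. In WT, Bcl2l1 had 107, 119.7 and 116 CPM at day 2, against 26.3, 29.0 and 23.8 CPM untreated. The untreated lines overlapped, and at day 2 each P248L library was below each WT library. The difference for Bcl2l1 was -1.12 ± 0.26 (adjusted p = 0.0223), and it missed the threshold in 6 of the 12 fits that left out 1 library.

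Of the 15 STAT5-responsive genes tested, 10 rose and 1 fell in P248L, and 12 rose and 0 fell in WT. The median response was 0.99 in P248L and 1.33 in WT, against -0.02 and -0.01 over all tested genes. The median of the per-gene differences in this list was -0.99. The difference passed for 4 genes, all lower in P248L: Osm, Bcl2l1, Ccnd1 and the kinase gene Pim2. That count was 2 without P248L day 2 library 2, without WT day 2 library 2, without WT day 2 library 3 or without WT untreated library 3. It was 4 without P248L untreated library 1 and P248L day 2 library 3 together, and 8, all lower, with the replicate block within P248L. For this list and those below, the share that differed over all tested genes was 6.45%. Over all tested genes 15.7% rose and 18.8% fell in P248L, and 19.0% rose and 19.5% fell in WT. No list was tested against these shares.

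Ccnd1, encoding cyclin D1 of the G1 phase, had 3.77, 6.28 and 5.48 CPM in the P248L day 2 libraries, against 29.2, 29.4 and 23.6 CPM in P248L untreated. In WT, Ccnd1 had 9.44, 14.3 and 16.8 CPM at day 2, against 19.3, 22.2 and 16.1 CPM untreated. It fell in P248L with no overlap of libraries, while the WT groups overlapped. The difference for Ccnd1 was -1.91 ± 0.34 (adjusted p = 0.00405).

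In the MAPK arm, Egr1 rose less in P248L and Dusp6 fell past the threshold in P248L alone. Egr1, an immediate-early zinc finger factor, had 7.45, 3.73 and 7.82 CPM in the P248L day 2 libraries, against 2.66, 2.75 and 2.72 CPM in P248L untreated. In WT, Egr1 had 159, 119 and 128 CPM at day 2, against 3.91, 3.24 and 6.44 CPM untreated. Both lines rose without overlap, and the WT day 2 libraries stood more than 10 times above those of P248L. The difference for Egr1 was -3.68 ± 0.41 (adjusted p = 0.000166).

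Dusp6, the phosphatase that dampens ERK, had 13.1, 13.3 and 19.8 CPM in the P248L day 2 libraries, against 110.0, 87.3 and 95.3 CPM in P248L untreated. In WT, Dusp6 had 102, 100.3 and 111 CPM at day 2, against 118, 123 and 127 CPM untreated. P248L fell without overlap. The WT day 2 libraries also lay below all WT untreated ones, but the WT response of -0.23 ± 0.16 did not pass (adjusted p = 0.28). The difference for Dusp6 was -2.44 ± 0.23 (adjusted p = 5.89e-05).

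Nab2, a corepressor of EGR factors, had 1.36, 1.18 and 0.391 CPM in the P248L day 2 libraries, against 2.74, 1.98 and 2.38 CPM in P248L untreated. In WT, Nab2 had 10.3, 11.6 and 10.7 CPM at day 2, against 1.06, 1.68 and 0.987 CPM untreated. It fell in P248L and rose in WT, and no libraries overlapped within a line. The difference for Nab2 was -4.31 ± 0.45 (adjusted p = 0.000109).

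Of 22 MAPK feedback and immediate-early genes tested, 4 rose and 4 fell in P248L, and 12 rose and 3 fell in WT. The median response was 0.24 in P248L and 1.08 in WT. The difference passed for 8 of the 22, 7 lower in P248L (Dusp6, Egr1, Phlda1, Etv5, Egr3, Ier3 and Fosl1) and 1 higher (Spry1). By class, 2 of the 8 were weakened, 5 were lost and 1 passed in P248L alone. Without P248L untreated library 1 and P248L day 2 library 3 the count was 10 lower and 1 higher, and with the replicate block within P248L it was 13 lower and 1 higher. Without WT day 2 library 1 it was 6 lower and 0 higher.

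**Figure D3:**
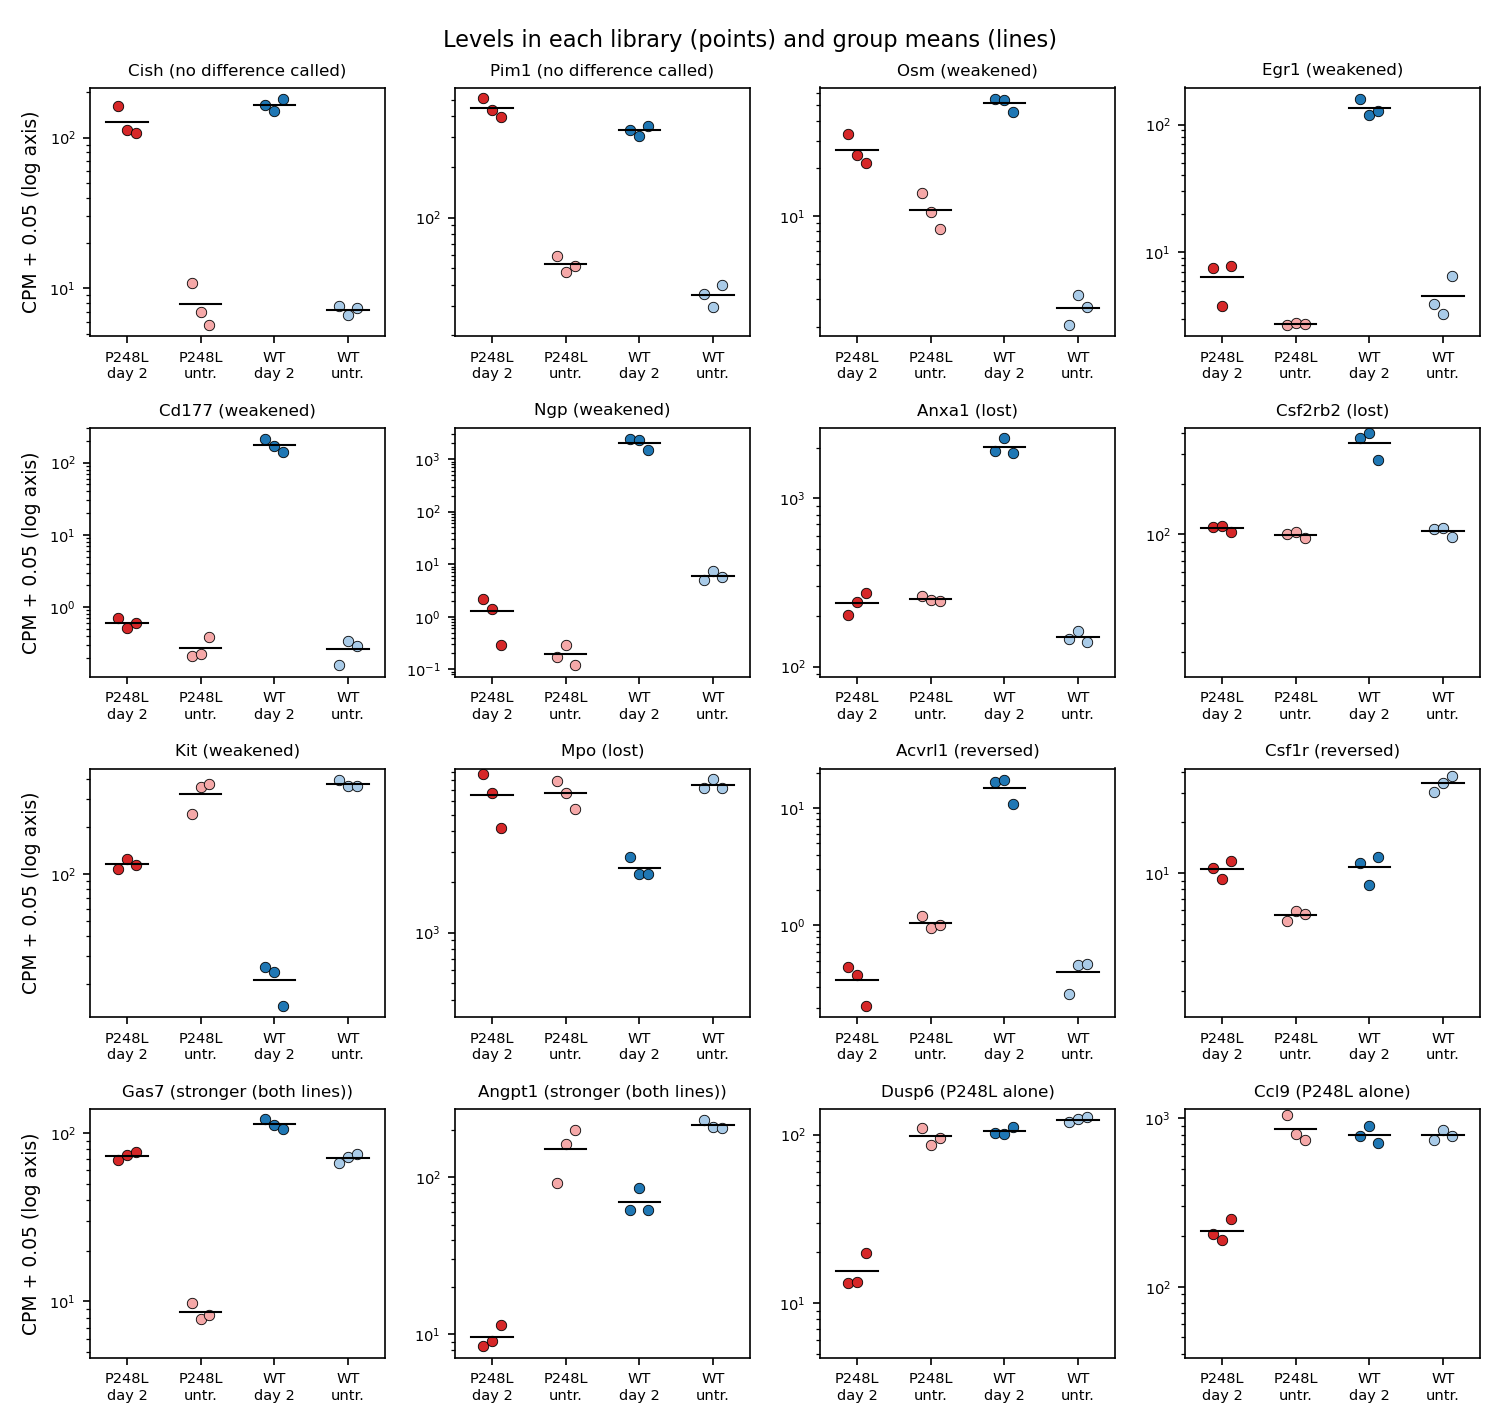
Points are single libraries and lines are group means for 16 genes, as CPM + 0.05 on a log axis, with P248L day 2, P248L untreated, WT day 2 and WT untreated from left to right. Cish and Pim1 are high in both day 2 groups, Cd177, Ngp and Anxa1 are highest in WT day 2, and Dusp6 and Ccl9 are lowest in P248L day 2.

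Late neutrophil genes were among the weakened rises with the largest differences. Cd177, a surface glycoprotein of neutrophils, had 0.657, 0.458 and 0.548 CPM in the P248L day 2 libraries, against 0.159, 0.174 and 0.341 CPM in P248L untreated. In WT, Cd177 had 211, 171 and 141 CPM at day 2, against 0.106, 0.287 and 0.235 CPM untreated. The 3 WT day 2 libraries stood above the other 9, and the untreated lines overlapped. The response was 1.43 ± 0.40 in P248L and 9.62 ± 0.30 in WT, and the difference was -8.19 ± 0.65 (adjusted p = 1.75e-05).

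Ngp, neutrophilic granule protein of the secondary granules, had 2.15, 1.37 and 0.235 CPM in the P248L day 2 libraries, against 0.119, 0.244 and 0.0681 CPM in P248L untreated. In WT, Ngp had 2386, 2299.5 and 1503 CPM at day 2, against 5.02, 7.30 and 5.55 CPM untreated. WT was above P248L before IL-3 as well as at day 2, and P248L day 2 library 3 lay within the range of P248L untreated. The difference for Ngp was -5.39 ± 1.10 (adjusted p = 0.0098), and it missed the threshold without P248L untreated library 2.

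Anxa1, which encodes the anti-inflammatory protein annexin A1, had 203, 240.3 and 272 CPM in the P248L day 2 libraries, against 264, 247.9 and 244 CPM in P248L untreated. In WT, Anxa1 had 1916, 2272 and 1866 CPM at day 2, against 146, 162 and 140.0 CPM untreated. P248L groups overlapped, while the WT groups lay more than 10 times apart. The P248L response was -0.08 ± 0.14, with a 95% interval of -0.39 to 0.23 that lies within a 1.5-fold change, and the difference was -3.83 ± 0.21 (adjusted p = 2.06e-06).

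The stefin A genes encode cysteine protease inhibitors and lie in a multi-copy family, so reads may be shared among copies and their values are uncertain. Stfa2l1 had 0.613, 0.458 and 0.0782 CPM in the P248L day 2 libraries, against 0.0794, 0.139 and 0 CPM in P248L untreated. In WT, Stfa2l1 had 756, 864 and 633 CPM at day 2, against 0.687, 1.97 and 1.55 CPM untreated. For Stfa2l1 the WT day 2 libraries stood far above the other 9, and so they did for Stfa3. Stfa3 had 0.745, 0.327 and 0.0782 CPM in the P248L day 2 libraries, against 0.119, 0.383 and 0 CPM in P248L untreated. In WT, Stfa3 had 523, 789.9 and 562 CPM at day 2, against 0.792, 1.60 and 0.517 CPM untreated, and its difference was -8.18 ± 1.23 (adjusted p = 0.00128). The difference was -6.82 ± 1.37 for Stfa2l1 and -7.64 ± 1.38 for Stfa2 (adjusted p = 0.00899 and 0.00431). Stfa2l1 was sorted as weakened and the other 2 as lost, although the P248L responses had wide 95% intervals, 0.49 to 3.92 for Stfa2l1 and -0.67 to 2.89 for Stfa3. Each of the 3 missed the threshold without P248L untreated library 2.

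Of 19 late neutrophil genes tested, 12 rose in P248L and all 19 rose in WT, and none fell in either line. The median response was 2.19 in P248L and 6.19 in WT. Of these 19 genes 12 differed, all lower in P248L, of which 8 were weakened (Cd177, Lcn2, S100a8, S100a9, Ltf, Ngp, Fpr2 and Mmp8) and 4 lost (Anxa1, Cxcr2, Padi4 and Pglyrp1). Among them, Lcn2, Ltf and Mmp8 encode granule proteins, S100a8 and S100a9 calcium-binding alarmins, and Cxcr2 and Fpr2 chemoattractant receptors. The count was 6 without P248L untreated library 2, and 9 to 13 without any other single library.

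Retnlg, a resistin-like gene of mature neutrophils named here after its values were seen, had no reads in any of the 6 P248L day 2 and untreated libraries. In WT, Retnlg had 9.90, 12.7 and 13.3 CPM at day 2, against 0, 0.0410 and 0.0470 CPM untreated. No P248L response can be measured without reads, and the interaction test returned an adjusted p of 0.9999 for it. In all, 66 tested genes had no reads in either P248L group, 49 of them with a WT response past the threshold, and 0 of the 66 passed in the difference. Such genes stand outside the 727, so the count of lost responses leaves them out.

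Primary granule genes are expressed earlier in neutrophil maturation, and 3 of the 4 that differed had a higher response in P248L. Mpo, myeloperoxidase, had 8789, 6774 and 4185 CPM in the P248L day 2 libraries, against 7987, 6702 and 5396 CPM in P248L untreated. In WT, Mpo had 2823, 2239 and 2218 CPM at day 2, against 7168, 8109.5 and 7224 CPM untreated. The P248L groups overlapped, the WT groups did not, and WT day 2 libraries were the lowest of the 12. The difference for Mpo was 1.60 ± 0.35 (adjusted p = 0.0151), a lost fall.

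Elane, neutrophil elastase, had 51.7, 36.7 and 17.1 CPM in the P248L day 2 libraries, against 4.77, 2.02 and 2.04 CPM in P248L untreated. In WT, Elane had 37.3, 27.0 and 29.7 CPM at day 2, against 12.6, 12.3 and 12.3 CPM untreated. The untreated level was lower in P248L without overlap, and the day 2 levels of the lines overlapped. The difference for Elane was 2.22 ± 0.53 (adjusted p = 0.0238), a stronger rise, and it missed the threshold in 6 of the 12 fits without 1 library. Serpinb1a, an inhibitor of neutrophil serine proteases, had a weakened rise with a difference of -0.94 ± 0.20 (adjusted p = 0.0128). Of 9 primary granule genes tested, 5 rose and 2 fell in P248L, and 4 rose and 3 fell in WT. The difference was higher in P248L for 3 and lower for 1, with medians of 0.67 in P248L and 0.37 in WT. The count of 4 fell to 2 without WT untreated library 1, P248L untreated library 2 or P248L day 2 library 2, and to 1 without WT untreated library 3, WT day 2 library 2 or WT day 2 library 3.

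Among stem and progenitor genes, Kit, Flt3 and Hlf fell less in P248L, and Angpt1 fell more. Kit, the SCF receptor, had 107, 124 and 115 CPM in the P248L day 2 libraries, against 241, 356 and 375 CPM in P248L untreated. In WT, Kit had 25.4, 23.9 and 14.4 CPM at day 2, against 397, 362 and 363 CPM untreated. The untreated lines overlapped and both fell, and at day 2 every P248L library stood above every WT library. The difference for Kit was 2.64 ± 0.30 (adjusted p = 0.000178).

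Flt3, a receptor kinase of early progenitors, had 3.94, 4.58 and 4.22 CPM in the P248L day 2 libraries, against 115, 146 and 143 CPM in P248L untreated. In WT, Flt3 had 0.604, 0.734 and 0.167 CPM at day 2, against 134, 138 and 150.3 CPM untreated. Its fall exceeded 10-fold in both lines, and the day 2 level stayed higher in P248L. The difference for Flt3 was 3.13 ± 0.36 (adjusted p = 0.000198).

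Hoxa9, a homeobox regulator of progenitor self-renewal, had 2.19, 1.77 and 1.25 CPM in the P248L day 2 libraries, against 12.2, 98.9 and 156 CPM in P248L untreated. In WT, Hoxa9 had 1.72, 1.90 and 1.501 CPM at day 2, against 174, 124 and 243 CPM untreated. P248L untreated library 1 was far below the other 5 untreated libraries. The difference for Hoxa9 was 1.08 ± 0.98, with a 95% interval of -1.05 to 3.22 and an adjusted p of 0.566.

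Of 16 stem and progenitor genes tested, 2 rose and 12 fell in P248L, and likewise 2 rose and 12 fell in WT, with medians of -1.14 in P248L and -1.48 in WT. The difference passed for 5, of which Kit, Flt3 and Hlf were weakened falls, Angpt1 was a stronger fall and Etv6 passed in P248L alone. Angpt1, the ligand of the receptor Tie2, had 8.32, 9.03 and 11.5 CPM in the P248L day 2 libraries, against 91.4, 162 and 200.3 CPM in P248L untreated. In WT, Angpt1 had 61.6, 85.2 and 62.3 CPM at day 2, against 231, 208 and 207 CPM untreated. Both lines fell without overlap, and P248L day 2 was the lowest group. The difference for Angpt1 was -2.36 ± 0.35 (adjusted p = 0.0012).

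Among the other large weakened falls, S1pr3, a sphingosine-1-phosphate receptor, had 13.7, 11.1 and 10.2 CPM in the P248L day 2 libraries, against 31.9, 36.8 and 35.6 CPM in P248L untreated. In WT, S1pr3 had 0.511, 0.734 and 0.611 CPM at day 2, against 22.8, 22.3 and 19.98 CPM untreated. The difference for S1pr3 was 3.56 ± 0.26 (adjusted p = 1.17e-05). Both lines were above 10 CPM untreated, and at day 2 WT stayed under 1 CPM. Myl10, a myosin light chain gene, had a difference of 3.45 ± 0.40 (adjusted p = 0.000217). Its day 2 level was 3.12 ± 0.246 CPM in P248L and 0.203 ± 0.133 CPM in WT (mean ± SD, n = 3 each).

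Gpc3, a membrane proteoglycan, had 8.06, 9.75 and 9.78 CPM in the P248L day 2 libraries, against 34.7, 34.6 and 27.4 CPM in P248L untreated. In WT, Gpc3 had no reads in the 3 day 2 libraries, against 0.528, 0.410 and 0.188 CPM untreated, 24 reads in all. Against a floor of 3 reads over the group, its WT fall was at least 6.92-fold. P248L was thus far above WT at both times. The fitted difference of 4.11 ± 1.08 (adjusted p = 0.049) depends on the prior count used for the empty group, and it passed in 2 of the 12 fits without 1 library and missed under DESeq2.

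The receptors for IL-3 itself were read with the transduced constructs in mind. Il3ra had 2.23, 1.57 and 0.469 CPM in the P248L day 2 libraries, against 9.45, 6.61 and 3.81 CPM in P248L untreated. In WT, Il3ra had 3.25, 2.33 and 2.95 CPM at day 2, against 7.87, 11.8 and 7.80 CPM untreated. It fell in both lines without overlap, with a difference of -0.47 ± 0.57 (95% interval -1.71 to 0.77, adjusted p = 0.677). The labels do not give the species or sequence of the transduced IL3Ra and bc, so whether their reads were counted here is not known.

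Csf2rb encodes the common beta chain and Csf2rb2 its IL-3-specific relative, and both are deleted by name in the bc-/- bIL-3-/- background, so reads from the transduced bc and from the endogenous loci cannot be told apart, and the near-identical partners may share reads. Csf2rb had 97.6, 78.6 and 66.7 CPM in the P248L day 2 libraries, against 63.9, 71.8 and 68.3 CPM in P248L untreated. In WT, Csf2rb had 328, 313 and 227 CPM at day 2, against 97.9, 85.0 and 82.5 CPM untreated. The difference for Csf2rb was -1.46 ± 0.24 (adjusted p = 0.00259), a lost rise.

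Csf2rb2 had 111, 111 and 103 CPM in the P248L day 2 libraries, against 100.2, 104 and 94.6 CPM in P248L untreated. In WT, Csf2rb2 had 376, 399 and 278 CPM at day 2, against 108, 109.7 and 96.8 CPM untreated. P248L groups overlapped for both genes, and WT day 2 was above all 9 other libraries. The difference for Csf2rb2 was -1.62 ± 0.20 (adjusted p = 0.000332), and its P248L response had a 95% interval of -0.18 to 0.43.

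Csf1r, the macrophage colony-stimulating factor receptor, had 10.6, 9.16 and 11.7 CPM in the P248L day 2 libraries, against 5.16, 5.88 and 5.65 CPM in P248L untreated. In WT, Csf1r had 11.5, 8.45 and 12.5 CPM at day 2, against 30.3, 34.1 and 37.7 CPM untreated. P248L rose and WT fell, and the day 2 levels of the lines overlapped, while P248L was lower untreated. The difference for Csf1r was 2.57 ± 0.25 (adjusted p = 7.92e-05), a reversed response. Of 15 cytokine receptor genes tested, 4 rose and 6 fell in P248L, and 7 rose and 7 fell in WT, with medians of -0.06 in P248L and -0.45 in WT. The median of the per-gene differences was -0.47, which is lower in P248L. The difference was higher in P248L for 4 genes, among them Csf1r, Csf3r and Il6ra, and lower for Csf2rb, Csf2rb2, Csf2ra and Il1rl1.

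Of 10 basophil and mast cell genes tested, 2 rose and 4 fell in P248L, while 8 rose and 1 fell in WT. Cpa3, the mast cell carboxypeptidase, had 267, 271 and 271 CPM in the P248L day 2 libraries, against 495, 588 and 541 CPM in P248L untreated. In WT, Cpa3 had 975, 1172 and 836 CPM at day 2, against 614, 697 and 526 CPM untreated. It fell in P248L and rose in WT without overlap within a line, and the untreated lines overlapped. The difference for Cpa3 was -1.71 ± 0.22 (adjusted p = 0.000413), a reversed response.

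Cd200r3, an activating receptor of basophils and mast cells, had 5.48, 8.37 and 6.81 CPM in the P248L day 2 libraries, against 7.58, 8.59 and 8.45 CPM in P248L untreated. In WT, Cd200r3 had 51.7, 69.2 and 59.6 CPM at day 2, against 17.2, 18.6 and 15.5 CPM untreated. The P248L groups overlapped, and P248L was below WT at both times. The difference for Cd200r3 was -2.07 ± 0.25 (adjusted p = 0.000273). The median response of this list was -0.63 in P248L and 1.46 in WT. In this list 5 genes differed, all lower in P248L: the lost rises of Cd200r3 and of the granzyme gene Gzmb, the reversed rises of Cpa3 and of the histidine decarboxylase gene Hdc, and the fall of the chymase gene Cma1 in P248L alone. The count was 3 without P248L untreated library 1 and P248L day 2 library 3.

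All 3 eosinophil genes that could be tested had lost responses, though they went different ways. Prg2, the eosinophil major basic protein, had 0.131 ± 0.131 CPM in P248L at day 2, 0.146 ± 0.0479 CPM in P248L untreated, 4.74 ± 0.929 CPM in WT at day 2 and 0.0293 ± 0.0256 CPM in WT untreated (mean ± SD, n = 3 each). The WT untreated libraries held 2 reads of Prg2 together, so the WT fold of 152.1 has a counting interval of 41.7 to 1262. The difference for Prg2 was -6.92 ± 1.03 (adjusted p = 0.00116). Siglec5, the symbol used here for the eosinophil lectin gene now called Siglecf, fell in WT. Its P248L response was 0.47 ± 0.17, a rise just short of the threshold (adjusted p = 0.0522). The difference for Siglec5 was 1.09 ± 0.25 (adjusted p = 0.0188) and passed in 8 of the 12 fits without 1 library. Alox15, a lipoxygenase gene, was the third. The list's count was 1 without WT day 2 library 2.

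Monocyte and macrophage genes differed in both directions. F13a1, the coagulation factor XIII A chain, had 19.4, 26.0 and 27.9 CPM in the P248L day 2 libraries, against 188, 266 and 259 CPM in P248L untreated. In WT, F13a1 had 7.76, 5.88 and 5.06 CPM at day 2, against 474, 466 and 513 CPM untreated. Both lines fell without overlap, and P248L kept the higher day 2 level. The difference for F13a1 was 2.99 ± 0.28 (adjusted p = 5.11e-05), a weakened fall.

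Fcgr1, the high-affinity IgG receptor, had 69.4, 62.1 and 85.3 CPM in the P248L day 2 libraries, against 20.5, 17.2 and 15.0 CPM in P248L untreated. In WT, Fcgr1 had 43.9, 44.6 and 54.4 CPM at day 2, against 1.74, 2.01 and 2.30 CPM untreated. P248L was higher than WT at both times, and its rise over untreated was the smaller. The difference for Fcgr1 was -2.51 ± 0.26 (adjusted p = 0.000101). Of 12 genes tested in this list, 5 rose and 2 fell in P248L, and 7 rose and 4 fell in WT, with medians of 0.37 in P248L and 1.09 in WT. The difference was higher in P248L for 3 and lower for 3. Of 3 dendritic cell and MHC class II genes tested, Itgax and Cd74 had a lower response in P248L. None of 3 lymphoid genes differed, and Ppbp was the single megakaryocyte gene of 3 that did.

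Among myeloid transcription factors, Irf8, which favours monocytes over neutrophils, had 19.3, 20.4 and 28.2 CPM in the P248L day 2 libraries, against 42.3, 43.2 and 36.9 CPM in P248L untreated. In WT, Irf8 had 10.7, 9.49 and 16.6 CPM at day 2, against 78.7, 85.3 and 93.5 CPM untreated. Both lines fell without overlap, by less in P248L, which began lower. The difference for Irf8 was 1.96 ± 0.29 (adjusted p = 0.00132).

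Id2, an inhibitor of E proteins, had 3.68, 3.93 and 5.40 CPM in the P248L day 2 libraries, against 3.45, 2.05 and 1.77 CPM in P248L untreated. In WT, Id2 had 44.9, 47.1 and 37.6 CPM at day 2, against 3.33, 4.80 and 3.34 CPM untreated. The untreated lines overlapped, and WT day 2 stood above the other 9 libraries. The difference for Id2 was -2.69 ± 0.36 (adjusted p = 0.000637). Of 16 factors tested, 5 rose and 4 fell in P248L, and 9 rose and 3 fell in WT, with medians of 0.31 in P248L and 0.84 in WT. The difference passed for 6, higher in P248L for Irf8 and Runx1 and lower for Id2, Klf2, Gfi1 and Gata2. The count was 10 without P248L untreated library 3, and with the replicate block within P248L it was 3 higher and 8 lower. Without P248L untreated library 2 it was 2 higher and 2 lower.

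Of 15 chemokine and inflammatory genes tested, 12 differed, all with a lower response in P248L. Il6, the cytokine interleukin-6, had 0.745, 1.44 and 1.56 CPM in the P248L day 2 libraries, against 0.397, 0.591 and 0.477 CPM in P248L untreated. In WT, Il6 had 17.6, 17.8 and 13.1 CPM at day 2, against 0.581, 0.492 and 0.329 CPM untreated. Both lines rose without overlap, and WT day 2 was above all other libraries. The difference for Il6 was -3.82 ± 0.47 (adjusted p = 0.000337).

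Ccl9, a myeloid chemokine, had 206, 189 and 252 CPM in the P248L day 2 libraries, against 1043, 811 and 746 CPM in P248L untreated. In WT, Ccl9 had 780.0, 895 and 709 CPM at day 2, against 745, 855 and 781 CPM untreated. P248L fell without overlap, while the WT groups overlapped and differed by 0.00 ± 0.17. The difference for Ccl9 was -2.01 ± 0.24 (adjusted p = 0.000221). In this list 6 rose and 3 fell in P248L, and 12 rose and 0 fell in WT, with medians of 0.97 in P248L and 2.80 in WT. By class 5 of the 12 were weakened, 4 lost and 2 reversed, and Ccl9 passed in P248L alone. Leaving out 1 library gave 8 to 12.

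**Figure D4:**
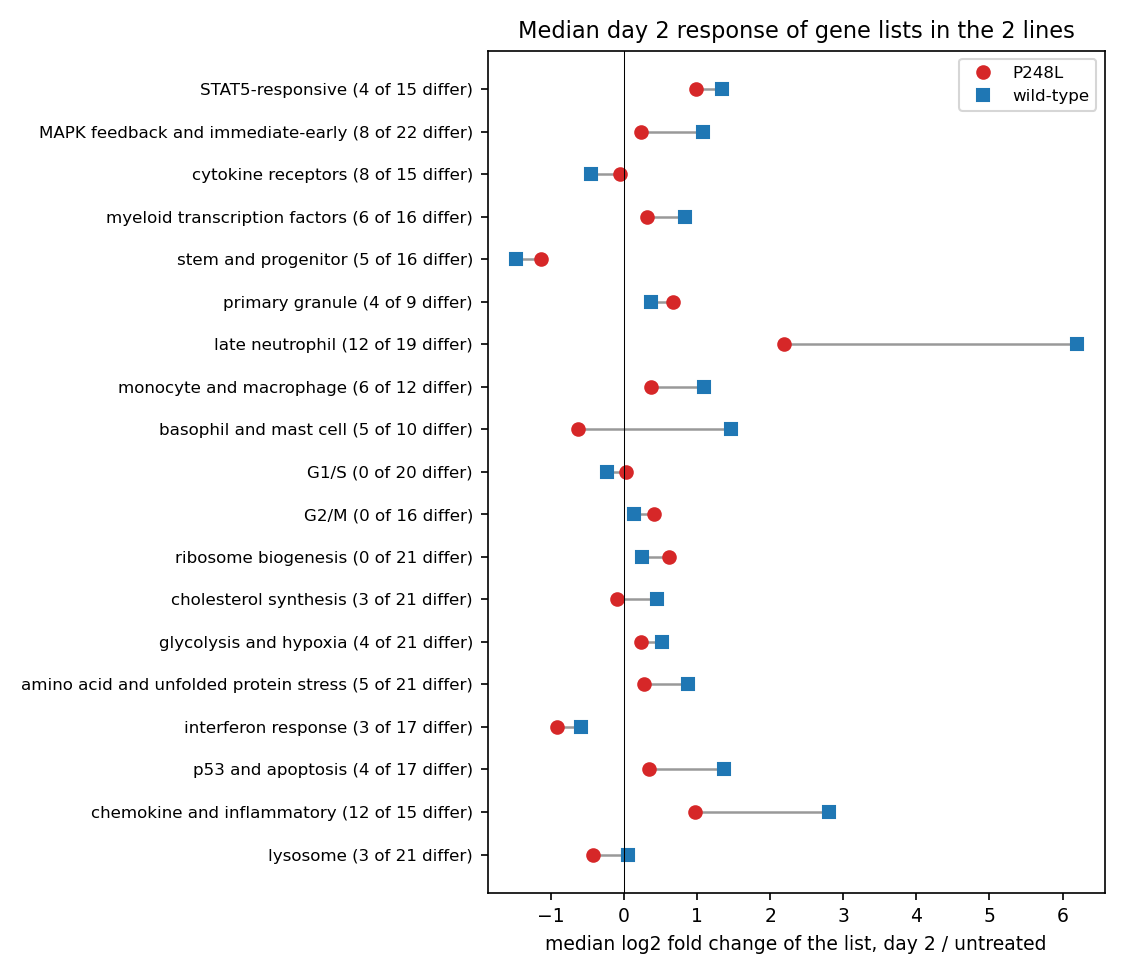
Circles (P248L) and squares (WT) give the median day 2 response (log2 fold change) of each gene list with 5 or more tested members, and the labels give how many members differed. The widest gap is that of late neutrophil genes, 2.19 in P248L and 6.19 in WT. The 2 cell cycle lists and ribosome biogenesis hold no gene that differed in the edgeR fit of the 12 libraries without a block.

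None of 20 G1/S genes, 16 G2/M genes or 21 ribosome biogenesis genes passed in the difference by edgeR, against 6.45% of all tested genes, a share at which lists of this size hold few calls, so nothing is read from these counts. With the replicate block within P248L, also by edgeR, 3 G1/S genes passed, all higher in P248L, as did 2 higher and 1 lower G2/M gene and 3 higher and 1 lower ribosome biogenesis gene. Ribosome biogenesis genes rose in P248L for 15 of 21 and in WT for 7, with medians of 0.62 in P248L and 0.24 in WT. Without P248L untreated library 1 and P248L day 2 library 3, 1 G1/S gene and 1 ribosome biogenesis gene passed, both higher in P248L. The same counts of 1 were found for both lists with all 18 libraries fitted, without P248L untreated library 3 or without P248L day 2 library 1. For G1/S a count of 1 was also found without P248L day 2 library 3. At an unadjusted p under 0.05, 3 of the G1/S genes, 0 of the G2/M genes and 6 of the ribosome biogenesis genes differed by edgeR, and DESeq2 called 1 G1/S gene, 0 G2/M genes and 1 ribosome biogenesis gene at an adjusted p under 0.05.

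Metabolic lists held a few genes each. Over all tested genes 6.45% differed, a share at which lists of this size hold few calls, so nothing is read from their counts. Slc2a3, the glucose transporter GLUT3, had 2.50, 4.97 and 3.599 CPM in the P248L day 2 libraries, against 3.38, 6.82 and 6.47 CPM in P248L untreated. In WT, Slc2a3 had 51.6, 80.4 and 66.6 CPM at day 2, against 6.02, 8.40 and 7.15 CPM untreated. The untreated lines and the P248L groups overlapped, and the WT day 2 libraries stood above the other 9. The difference for Slc2a3 was -3.80 ± 0.43 (adjusted p = 0.000176). Slc16a3, the lactate exporter MCT4, had a weakened rise with a difference of -2.47 ± 0.47 (adjusted p = 0.00602), from an untreated level of 1.09 ± 0.137 CPM in P248L and 0.207 ± 0.112 CPM in WT (mean ± SD, n = 3 each). Of 21 glycolysis and hypoxia genes, 6 rose and 1 fell in P248L and 13 rose and 2 fell in WT, and the difference was higher for 1 and lower for 3. That count of 4 was 2 without WT untreated library 1, WT untreated library 3, WT day 2 library 1, WT day 2 library 2 or P248L untreated library 2. With the replicate block within P248L it was 1 higher and 7 lower.

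Of 21 cholesterol synthesis genes tested, 1 rose and 2 fell in P248L, and 12 rose and 0 fell in WT, with medians of -0.09 in P248L and 0.45 in WT. In this list 3 genes differed, all lost rises: Fdps, Pmvk and Fdft1. Fdps, farnesyl diphosphate synthase, had a difference of -1.37 ± 0.30 (adjusted p = 0.0162). Pmvk, phosphomevalonate kinase, had -1.41 ± 0.35 (adjusted p = 0.0274) and passed in 4 of the 12 fits without 1 library. The list's count was 0 without P248L untreated library 2, WT day 2 library 2, WT untreated library 1 or WT untreated library 3. It was 1 without P248L day 2 library 2, P248L day 2 library 3 or WT day 2 library 1, 6 without P248L untreated library 1, and 8 without P248L untreated library 1 and P248L day 2 library 3. With the replicate block within P248L it was also 8.

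In the stress list, Slc7a11, the cystine-glutamate exchanger, had 92.4, 139.9 and 146 CPM in the P248L day 2 libraries, against 13.8, 22.0 and 30.2 CPM in P248L untreated. In WT, Slc7a11 had 1237, 1347 and 857 CPM at day 2, against 33.6, 23.4 and 21.9 CPM untreated. The untreated lines overlapped, and both rose without overlap. The difference for Slc7a11 was -2.92 ± 0.41 (adjusted p = 0.000769). Ddit4, an inhibitor of mTORC1, fell in P248L and rose in WT, with a difference of -1.78 ± 0.25 (adjusted p = 0.000745). Of 21 genes tested, 8 rose and 2 fell in P248L, 13 rose and 1 fell in WT, and the difference was lower for 5, or for 3 without WT day 2 library 1 or P248L untreated library 2. With the replicate block within P248L it was lower for 8.

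Cdkn1a, the p53 target p21, had 219, 165 and 149 CPM in the P248L day 2 libraries, against 105, 69.2 and 58.9 CPM in P248L untreated. In WT, Cdkn1a had 300.1, 287 and 302 CPM at day 2, against 33.9, 36.1 and 35.2 CPM untreated. It began higher in P248L and ended lower, without overlap between lines at either time. The difference for Cdkn1a was -1.89 ± 0.28 (adjusted p = 0.00126). Zmat3, another p53 target, had a weakened rise with a difference of -1.39 ± 0.24 (adjusted p = 0.00327). Of 17 p53 and apoptosis genes, 7 rose and 3 fell in P248L, 11 rose and 1 fell in WT, and the difference was lower for 4, or for 2 without WT untreated library 3, WT day 2 library 1 or WT day 2 library 2. With the replicate block within P248L it was lower for 10.

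Of 17 interferon response genes, 1 rose and 10 fell in P248L, 2 rose and 9 fell in WT, and 3 differed, or 1 without P248L day 2 library 2. Ddx58, the RNA sensor RIG-I, fell in P248L alone (difference -1.88 ± 0.41, adjusted p = 0.0139), and Zbp1, a nucleic acid sensor, had a lost rise (difference -2.39 ± 0.51, adjusted p = 0.0128). Of 21 lysosome genes, 4 rose and 10 fell in P248L, 7 rose and 6 fell in WT, and 3 differed, all lower in P248L, or 5 without P248L day 2 library 1 and 6 with the replicate block within P248L. Over all tested genes 6.45% differed, so nothing is read from the counts of 3 in these lists. Ctsl and Ctsd, both cathepsin proteases, had lost rises with a difference of -1.58 ± 0.25 for Ctsl (adjusted p = 0.00196) and of -1.36 ± 0.28 for Ctsd (adjusted p = 0.00937).

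Reversed responses were also found outside these lists. Acvrl1, a receptor kinase of the TGF-beta family, had 0.394, 0.327 and 0.156 CPM in the P248L day 2 libraries, against 1.15, 0.905 and 0.954 CPM in P248L untreated. In WT, Acvrl1 had 16.5, 17.3 and 10.8 CPM at day 2, against 0.211, 0.410 and 0.423 CPM untreated. P248L was higher than WT untreated and lower at day 2, without overlap. The difference for Acvrl1 was -7.04 ± 0.48 (adjusted p = 9.89e-06).

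Cdkn2b, which encodes the cell cycle inhibitor p15, had 0.0438, 0 and 0 CPM in the P248L day 2 libraries, against 0.397, 0.174 and 0.0681 CPM in P248L untreated. In WT, Cdkn2b had 9.11, 13.9 and 11.2 CPM at day 2, against 0.264, 0.369 and 0.470 CPM untreated. P248L held 1 read at day 2 and 16 untreated, a fall of 11.9-fold with a counting interval of 1.84 to 497.6. The difference for Cdkn2b was -8.11 ± 0.92 (adjusted p = 0.000181), and rests on few P248L reads.

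Syne1, the nuclear envelope protein nesprin-1, had 10.3, 12.5 and 9.70 CPM in the P248L day 2 libraries, against 13.3, 17.1 and 22.5 CPM in P248L untreated. In WT, Syne1 had 298, 283 and 178 CPM at day 2, against 31.1, 19.8 and 30.7 CPM untreated. The untreated lines overlapped, and the P248L fall passed by little (adjusted p = 0.0499). The difference for Syne1 was -3.91 ± 0.36 (adjusted p = 5.11e-05).

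In the other direction, Elavl2, an RNA-binding protein, had 21.2, 22.5 and 32.7 CPM in the P248L day 2 libraries, against 6.87, 5.32 and 6.88 CPM in P248L untreated. In WT, Elavl2 had 0.279, 0.184 and 0.111 CPM at day 2, against 0.581, 0.492 and 0.705 CPM untreated. Its P248L level was above that of WT at both times. The difference for Elavl2 was 3.56 ± 0.46 (adjusted p = 0.000413). Col4a2, a type IV collagen chain, and Kmo, an enzyme of tryptophan breakdown, also rose in P248L and fell in WT. Their differences were 3.20 ± 0.33 for Col4a2 and 2.18 ± 0.29 for Kmo (adjusted p = 0.000101 and 0.000491). The 84 reversed WT rises had a median response of -1.09 in P248L and 1.03 in WT, and the 14 reversed WT falls 0.60 in P248L and -0.71 in WT.

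Among the lost responses without a list, Lama5, a laminin chain, had 0.175, 0.131 and 0 CPM in the P248L day 2 libraries, against 0.119, 0.278 and 0.204 CPM in P248L untreated. In WT, Lama5 had 16.5, 20.1 and 11.8 CPM at day 2, against 0.264, 0 and 0.0470 CPM untreated. The difference for Lama5 was -8.10 ± 1.11 (adjusted p = 0.000686). No P248L library reached 1 CPM. Sept5, a septin gene, had 3 reads in P248L at day 2, 2 in P248L untreated, 753 in WT at day 2 and 3 in WT untreated. Its WT fold was 290.3, with a counting interval of 98.9 to 1411, no P248L fold can be given, and its difference passed in 3 of the 12 fits without 1 library.

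Nrg2, a neuregulin growth factor gene, had 0.789, 0.785 and 0.548 CPM in the P248L day 2 libraries, against 0.834, 0.835 and 1.02 CPM in P248L untreated. In WT, Nrg2 had 0.604, 0.551 and 0.778 CPM at day 2, against 13.5, 11.4 and 15.7 CPM untreated. Only the WT untreated libraries were above 2 CPM, and the P248L groups were low at both times. The difference for Nrg2 was 4.08 ± 0.36 (adjusted p = 3.78e-05). Bex6 and the sodium-calcium exchanger gene Slc8a1 also fell in WT alone, with a difference of 2.31 ± 0.24 for Bex6 (adjusted p = 0.000101) and of 1.70 ± 0.32 for Slc8a1 (adjusted p = 0.00591).

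Of the 266 lost responses, 74 had a P248L response whose whole 95% interval lay within a 1.5-fold change, 52 rises and 22 falls. For the other lost responses a larger P248L change was not excluded by the interval. The median P248L response was -0.06 for the 211 lost rises, against 1.74 in WT. Over the 222 weakened responses the P248L response was a median of 0.43 of the WT response, with quartiles of 0.33 and 0.52. Nov, a secreted matricellular protein now called Ccn3, had 3.37, 2.22 and 3.44 CPM in the P248L day 2 libraries, against 0.0397, 0.278 and 0 CPM in P248L untreated. In WT, Nov had 87.7, 107 and 110.1 CPM at day 2, against 0.158, 0.205 and 0.0470 CPM untreated, so both lines rose without overlap. The difference for Nov was -4.96 ± 0.97 (adjusted p = 0.00745), which missed the threshold without P248L untreated library 2.

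Of the 9 stronger rises, 8 were lower in P248L than in WT before IL-3, and 6 were still lower at day 2. Of the 28 stronger falls, 8 were higher and 4 lower in P248L untreated, and 22 were lower at day 2. Gas7 had 68.9, 74.1 and 77.2 CPM in the P248L day 2 libraries, against 9.73, 7.86 and 8.31 CPM in P248L untreated. In WT, Gas7 had 121, 112 and 105 CPM at day 2, against 66.3, 72.2 and 74.7 CPM untreated. P248L day 2 libraries lay below all WT day 2 libraries and overlapped the WT untreated ones. The difference for Gas7 was 2.42 ± 0.18 (adjusted p = 1.17e-05).

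Nrg1, a neuregulin growth factor, had 43.1, 40.2 and 40.8 CPM in the P248L day 2 libraries, against 5.96, 4.94 and 4.50 CPM in P248L untreated. In WT, Nrg1 had 32.3, 25.5 and 25.4 CPM at day 2, against 9.14, 7.54 and 9.64 CPM untreated. It began lower in P248L and ended higher, without overlap. The difference for Nrg1 was 1.34 ± 0.23 (adjusted p = 0.00327). Il10ra, the interleukin-10 receptor chain, had no reads in P248L untreated and 32 at day 2, so its P248L rise was at least 14.4-fold over a floor of 3 reads for the group. Its WT response was 1.72 ± 0.24, and the fitted difference of 4.93 ± 0.97 (adjusted p = 0.0113) depends on the prior count.

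Slc27a1, a fatty acid transport protein, had 0.526, 0.262 and 0 CPM in the P248L day 2 libraries, against 12.2, 12.7 and 10.4 CPM in P248L untreated. In WT, Slc27a1 had 8.41, 5.14 and 6.56 CPM at day 2, against 10.6, 12.0 and 13.2 CPM untreated. The untreated lines overlapped, and P248L day 2 was under 1 CPM in all 3 libraries. The difference for Slc27a1 was -4.42 ± 0.53 (adjusted p = 0.000268). Padi2, a peptidylarginine deiminase, and Prdx4, a peroxiredoxin of the endoplasmic reticulum, also fell further in P248L, with a difference of -2.42 ± 0.27 for Padi2 (adjusted p = 0.00016) and of -1.51 ± 0.31 for Prdx4 (adjusted p = 0.00937).

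Of genes that passed in P248L and not in WT, Pcdh7, a protocadherin, had 4.47, 4.78 and 4.85 CPM in the P248L day 2 libraries, against 49.1, 72.2 and 88.1 CPM in P248L untreated. In WT, Pcdh7 had 74.3, 83.1 and 89.4 CPM at day 2, against 117, 94.5 and 118 CPM untreated. P248L day 2 was under 5 CPM, and the WT response of -0.42 ± 0.19 did not pass although its libraries did not overlap. The difference for Pcdh7 was -3.48 ± 0.28 (adjusted p = 1.91e-05). Slc45a3, a solute carrier, and Cd52, a small surface glycoprotein of leukocytes, also fell in P248L alone, with a difference of -3.36 ± 0.42 for Slc45a3 (adjusted p = 0.000376) and of -2.12 ± 0.36 for Cd52 (adjusted p = 0.0032).

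Rises past the threshold in P248L alone were fewer. Rassf4, a RAS-association domain protein, had 3.24, 3.73 and 4.22 CPM in the P248L day 2 libraries, against 0.357, 0.348 and 0.204 CPM in P248L untreated. In WT, Rassf4 had 12.4, 9.91 and 15.3 CPM at day 2, against 12.7, 9.43 and 14.8 CPM untreated. Even after its rise P248L stayed below WT. The difference for Rassf4 was 3.49 ± 0.38 (adjusted p = 0.000139). Tex2 had a difference of 1.27 ± 0.16 (adjusted p = 0.000413). Met, the receptor of hepatocyte growth factor, had one of 1.35 ± 0.32 (adjusted p = 0.0242) and passed in 5 of the 12 fits without 1 library.

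**Figure D5:**
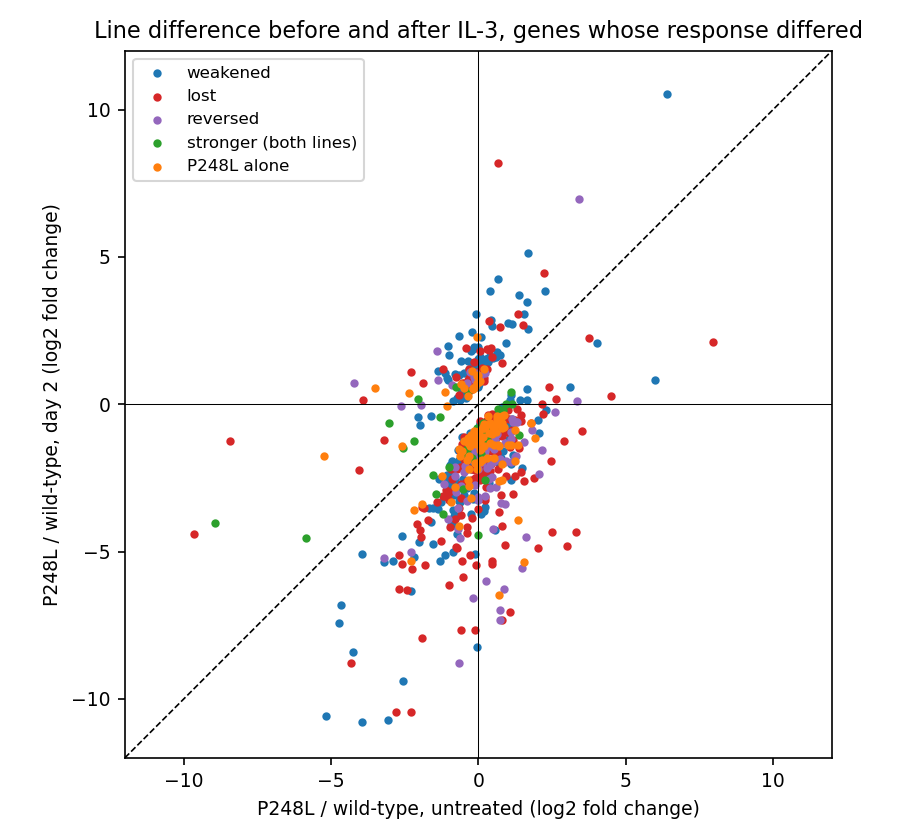
Each point is 1 of the 727 genes, with the log2 fold change of P248L over WT in untreated cells on the horizontal axis and at day 2 on the vertical axis; the dashed line marks an equal line difference at both times. The 547 genes with a lower response in P248L lie below the dashed line and the 180 with a higher one above it, and 654 genes differed between lines at day 2, against 242 untreated.

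The lines already differed before IL-3, with 746 genes higher in P248L (6.61%) and 893 lower (7.92%). At day 2, 1359 genes were higher in P248L (12.1%) and 1956 lower (17.3%). Of the 222 weakened genes, 88 differed untreated and 203 at day 2. Of the 266 lost genes 75 differed untreated and 242 at day 2, and of the 98 reversed genes 32 and 89 did. These line contrasts use the libraries that chose the genes and were not tested further. For 189 of the lost genes the lines differed at day 2 and not untreated.

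The day 5 libraries of both lines were not used to choose or sort the genes, and they give later levels of the same genes. Over the 140 weakened WT rises, the median level in P248L was 3.42 CPM untreated, 14.7 CPM at day 2 and 129 CPM at day 5. In WT it was 4.06 CPM untreated, 67.3 CPM at day 2 and 141 CPM at day 5. Over the 211 lost rises the median in P248L was 5.91 CPM untreated, 4.65 CPM at day 2 and 43.9 CPM at day 5, and in WT 5.77 CPM untreated, 22.0 CPM at day 2 and 57.4 CPM at day 5. Over the 84 reversed WT rises it was 6.26, 2.37 and 25.8 CPM in P248L and 5.38, 12.8 and 40 CPM in WT at the same 3 times. Over the 82 weakened WT falls the median was 32.6, 12.6 and 8.59 CPM in P248L and 33.7, 5.83 and 5.55 CPM in WT. The 55 lost falls had medians of 15.2, 14.2 and 6.73 CPM in P248L and 18.8, 8.52 and 6.19 CPM in WT. The 14 reversed WT falls had medians of 24.3 CPM at day 2 and 16.2 CPM at day 5 in P248L, and of 12.4 CPM at day 2 and 5.92 CPM at day 5 in WT. At day 5 the median was lower in P248L for all 3 classes of WT rises and higher in P248L for all 3 classes of WT falls. These are descriptions of levels scaled over all 18 libraries, with no test between days.

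Single genes showed different day 5 levels. Cd177 had 93.2, 67.4 and 54.0 CPM in P248L at day 5 and 74.5, 116 and 114 CPM in WT at day 5. Anxa1 had 1928, 2360.1 and 2585 CPM in P248L and 1314, 1406 and 1802 CPM in WT. The lines overlapped for Cd177 at day 5, and every P248L library of Anxa1 stood above every WT library. Lama5 had 0.787, 0.921 and 0.0628 CPM in P248L and 40.1, 40.6 and 43.6 CPM in WT, and Cpa3 had 38.3, 47.9 and 27.1 CPM in P248L and 2996, 2634 and 2026 CPM in WT. For these last genes every P248L library at day 5 stayed below every WT library. Retnlg, without reads in P248L untreated or at day 2, had 87.9, 90.3 and 105 CPM in P248L at day 5 and 14.9, 25.5 and 47.6 CPM in WT at day 5.

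At the threshold, Capn10, Hsd17b1 and Pglyrp1 lay just inside, at adjusted p-values of 0.0496, 0.0496 and 0.0498, and Dbndd2, Crat and Trub1 just outside, at 0.05002, 0.0502 and 0.0503. Of the 70 named genes that passed, 54 passed in all 12 fits that left out 1 library, and none changed direction in any alternative. The alternatives refit all or most of the libraries that chose these genes.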

How the data were processed

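RNA sequencing of FDH cells was deposited as 18 tables of read counts per gene, 1 per library. The authors aligned reads with STAR to mm10, per the submitters' processing notes; versions, annotation and counting settings are not stated in the labels. The deposited counts are whole numbers, not normalised, with unstranded, forward and reverse columns, and the reverse-strand column was used, since the other strand held 1.5% to 2.54% of reads assigned to genes. Unassigned or ambiguous reads, 30.7% to 38.1% of the total, stayed out of library sizes and tests.

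The 12 untreated and day 2 libraries of both lines were fitted together in edgeR 4.0.16 under R 4.3.3, with TMM scaling, a minimum count of 10 in filterByExpr, a quasi-likelihood F test and Benjamini-Hochberg adjustment over 11278 genes at a threshold of 0.05. The common biological coefficient of variation was 0.195. CPM values use TMM-scaled library sizes. The SE of each contrast was derived from its test, as the absolute log2 fold change divided by the square root of the F statistic. Each 95% interval was built from that SE. SEs of a gene's single responses therefore need not combine into the SE of its difference. The self-check on simulated counts was run on the same code. Day 5 levels come from scaling all 18 libraries together. Depth was 13844612 to 27181962 reads in genes per library. Counting intervals and floors cover counting error only.

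Genes named with values are, for each class and direction, the 4 of largest absolute difference with 10 CPM or more in their highest group, the 2 members of smallest adjusted p of each list with 3 or more members that differed, and a set of receptor, STAT5 and marker genes; 2 genes so selected are not reported here. The members and lists were chosen with earlier results of these data known. Promoters are RefSeq sequences on GRCm38.p6, matched by symbol. Alternatives were DESeq2 1.42.0, limma-voom (limma 3.58.1), other scalings and filters, all 18 libraries, replicate blocks, a stricter threshold, both strands, other class boundaries and leaving out libraries. The replicate numbers come from the labels, which do not say what a number marks. Deviations of same-numbered P248L day 2 and untreated libraries correlated at 0.47, 0.2 and 0.36, and those of WT at 0.045, -0.081 and -0.24. Between lines, deviations of same-numbered untreated libraries correlated at -0.44, -0.25 and 0.41, and of day 2 libraries at 0.2, 0.091 and -0.099. Whether a number pairs libraries in either line was not tested.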

Additional observations from a re-analysis of the deposited data

Results flagged for a closer look

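The difference between the 2 day 2 responses was tested itself, as the interaction of line and treatment in edgeR, and 727 of 11278 genes passed. All values here are log2 differences, the P248L response minus the WT response, so a weakened or lost fall has a positive value. Dixon's test for an outlying library was not applied to these groups of 3.

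Weakened rises among the named genes had differences of -8.19 for Cd177, -6.82 for Stfa2l1, -5.39 for Ngp, -4.96 for Nov, -3.04 for Osm, -3.68 for Egr1, -2.69 for Id2, -0.94 for Serpinb1a, -2.51 for Fcgr1, -2.47 for Slc16a3, -2.92 for Slc7a11, -1.89 for Cdkn1a, -1.39 for Zmat3, -3.82 for Il6 and -1.12 for Bcl2l1. Weakened falls among the named genes had differences of 4.11 for Gpc3, 3.56 for S1pr3, 3.45 for Myl10, 3.13 for Flt3, 1.96 for Irf8, 2.64 for Kit and 2.99 for F13a1.

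Lost rises among the named genes had differences of -8.18 for Stfa3, -8.10 for Lama5, -7.64 for Stfa2, -7.08 for Sept5, -3.83 for Anxa1, -2.07 for Cd200r3, -6.92 for Prg2, -1.37 for Fdps, -1.41 for Pmvk, -3.80 for Slc2a3, -2.39 for Zbp1, -1.58 for Ctsl, -1.36 for Ctsd, -1.46 for Csf2rb and -1.62 for Csf2rb2. Lost falls among the named genes had differences of 4.08 for Nrg2, 2.31 for Bex6, 1.70 for Slc8a1, 1.60 for Mpo and 1.09 for Siglec5.

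Rises in WT that were falls in P248L among the named genes had differences of -8.11 for Cdkn2b, -7.04 for Acvrl1, -4.31 for Nab2, -3.91 for Syne1, -1.71 for Cpa3 and -1.78 for Ddit4. Falls in WT that were rises in P248L among the named genes had differences of 3.56 for Elavl2, 3.20 for Col4a2, 2.57 for Csf1r and 2.18 for Kmo.

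Stronger rises among the named genes had differences of 4.93 for Il10ra, 2.42 for Gas7, 2.22 for Elane and 1.34 for Nrg1. Stronger falls among the named genes had differences of -4.42 for Slc27a1, -2.42 for Padi2, -2.36 for Angpt1 and -1.51 for Prdx4. Rises past the threshold in P248L alone among the named genes had differences of 3.49 for Rassf4, 1.35 for Met and 1.27 for Tex2. Falls past the threshold in P248L alone among the named genes had differences of -3.48 for Pcdh7, -3.36 for Slc45a3, -2.44 for Dusp6, -2.12 for Cd52, -1.91 for Ccnd1, -1.88 for Ddx58 and -2.01 for Ccl9.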

How the results depend on the processing

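All 727 genes kept their direction of difference under every alternative in which they were tested. The alternatives refit all or most of the libraries that chose the genes, so a kept direction is not independent support. Of the 70 named genes that passed, 52 passed under every alternative. The count of genes that differed was 1107 by DESeq2, 1140 with all 18 libraries, 369 at an adjusted p under 0.01 and 1131 without P248L untreated library 1 and P248L day 2 library 3, and 618 to 885 under the other scalings, filters, strands and limma-voom. The count of P248L responses was 2222 at an adjusted p under 0.01. Lost responses numbered 444 by DESeq2, 429 with all 18 libraries, 169 at 0.01 and 452 without the 2 libraries. Stronger responses, 141 in both kinds, numbered 239, 272, 63 and 224 under the same 4 settings, and 74 with class boundaries set by the ratio of responses, which gave 235 reversed. At 0.01, 96 were weakened and 36 reversed. The cause of these moves was not tested.

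With the replicate number as a block, 710 genes differed when the block was shared by both lines, 1262 with a block within each line (458 lost, 148 reversed, 353 stronger) and 2214 with a block within P248L alone (461 weakened, 741 lost, 222 reversed, 767 stronger), an alternative chosen after seeing the data. In WT the deviations of same-numbered day 2 and untreated libraries correlated at 0.045, -0.081 and -0.24.

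Leaving out 1 library gave 469 to 942 genes that differed, 2897 to 4548 P248L responses, 3469 to 5256 WT responses, 115 to 237 weakened, 177 to 386 lost, 67 to 123 reversed and 70 to 228 stronger. The depth limits genes with few or no reads in a group: 13 of the 727 had no reads in at least 1 group.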

Other observations

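Some genes could not enter any class because P248L libraries held no reads of them. Of the 66 tested genes without reads in P248L untreated and day 2 libraries, 41 also had none in the 3 P248L day 5 libraries. Tested genes without reads in both WT groups numbered 4. The examples given here were chosen after their values were seen. Chchd10, which encodes a mitochondrial protein, had no reads in any P248L library, and in WT it had 23.2, 19.6 and 22.6 CPM at day 2, against 8.98, 10.6 and 9.68 CPM untreated. In WT, Chchd10 rose with a log2 fold change of 1.16 (adjusted p = 0.000764). Rnf217, a RING finger protein gene, had no reads in any P248L library and averaged 19.5 CPM in WT at day 2 and 11.1 CPM in WT untreated. Car4, a carbonic anhydrase, had no reads in any P248L library, and in WT it had none untreated and averaged 4.29 CPM at day 2 and 75.5 CPM at day 5. Whether such zeros belong to the line, to its receptor or to how reads were assigned cannot be told apart with 1 line per receptor.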
